A study of Mus musculus with 16 samples.

Results

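Cell cycle and DNA replication genes were followed in bone as 34 named genes, of which 15 act mainly in S phase, when DNA is copied, and 19 act mainly in mitosis, when the copied chromosomes are separated. The members were listed by gene name, and membership has no threshold on a measured value. On the array, 33 of the 34 had at least 1 probe set (a set of short probes for 1 transcript) that carries their symbol alone, and these 33 had 78 probe sets among 34945 that carry a single symbol. Ccnb1, the gene of cyclin B1, had none and is not reported. All 33 (15 S-phase and 18 mitotic) were among the 12735 genes tested of 18193 on the array.

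RNA was taken from bone with its marrow, as the last 5 mm at the knee end of the left femur, in 16 female C57BL/6 mice whose ovaries had been removed, with 1 array per mouse and no pooling. Ovariectomy, which removes the main source of estrogen, was common to all 4 groups. The groups of 4 mice were wild type given vehicle (WT-OVX), wild type taken 4 h after estrogen (WT-E2-4hr), and mice with an osteoclast-specific deletion of estrogen receptor alpha, given vehicle (ERaKO-OVX) or 4 h after estrogen (ERaKO-E2-4hr). Osteoclasts resorb bone. The sources used here do not give the estrogen compound and dose, the driver of the deletion or the age of the mice, and the vehicle of the ERaKO-OVX mice is known from the series design text alone. In bulk tissue, fewer cells of a type and less RNA per cell cannot be told apart.

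Cell division follows a fixed order of gene use. Before replication, Cdc6 and Cdt1 load the helicase made of Mcm2 to Mcm7 onto DNA. E2F transcription factors such as E2f1, released from the retinoblastoma protein by cyclin-dependent kinases, then drive the genes for replication and for nucleotide supply (Ccne1, Ccne2, Pcna, Rrm1, Rrm2, Tyms). Later, the transcription factor Foxm1 drives genes of the spindle and of its checkpoint. Cdk1 with cyclins A2 and B and the kinases Aurka, Aurkb and Plk1 drive the steps of mitosis. Adult marrow holds many dividing precursors of red cells, neutrophils and B lymphocytes, while mature osteoclasts no longer divide, so these transcripts are known in this tissue mainly as a measure of marrow proliferation.

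The 2 classes are also known by their promoters, and sequences are shown here as background to the comparison of S-phase with mitotic genes. No class and no comparison was set by the motifs. RefSeq promoter windows (build GRCm38.p6, 250 bases before to 50 bases after the transcription start) were found for 29 members, 13 S-phase and 16 mitotic, Ccnb1 included. Mcm7 had 2 windows, which gives 14 windows for the S-phase members. An E2F motif was searched on both strands as TTTCCCGC, TTTGGCGC, TTTCGCGC or TTTGCCGC. A cell cycle homology region (CHR) was searched as TTTGAA or TTCGAA, and a CCAAT box as CCAAT. The CHR binds the MuvB complex, which holds mitotic genes off in resting cells, and the CCAAT box binds the factor NF-Y. Matches of different words can overlap, and TTCGAA reads the same on both strands. The bases from 150 before the start to the base before it follow, with matches in capitals.

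Cdc6: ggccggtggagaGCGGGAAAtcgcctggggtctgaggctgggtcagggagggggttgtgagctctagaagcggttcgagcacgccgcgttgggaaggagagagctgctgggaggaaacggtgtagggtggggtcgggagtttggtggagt

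Mcm6: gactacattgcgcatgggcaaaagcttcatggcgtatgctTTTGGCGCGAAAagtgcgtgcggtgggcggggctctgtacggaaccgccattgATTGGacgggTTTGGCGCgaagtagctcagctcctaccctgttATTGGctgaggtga

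Cdk1: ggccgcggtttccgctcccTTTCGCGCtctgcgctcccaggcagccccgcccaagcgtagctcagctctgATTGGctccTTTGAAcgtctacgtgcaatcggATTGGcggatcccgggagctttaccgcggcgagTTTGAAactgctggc

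Top2a: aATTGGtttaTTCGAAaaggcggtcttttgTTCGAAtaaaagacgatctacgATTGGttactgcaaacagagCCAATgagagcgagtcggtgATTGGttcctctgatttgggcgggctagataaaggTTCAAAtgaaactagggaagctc

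Ccnb2: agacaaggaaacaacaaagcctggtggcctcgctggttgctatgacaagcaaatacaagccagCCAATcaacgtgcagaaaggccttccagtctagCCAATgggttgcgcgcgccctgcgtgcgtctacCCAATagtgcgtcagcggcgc

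Cdc6 and Mcm6 are shown for the S-phase class, Top2a and Ccnb2 for the mitotic class, since these members carried some of the larger differences below, and Cdk1 because it was the single mitotic member with an E2F match. The windows printed lie at chr11:98908001-98908150 on the plus strand for Cdc6, and on the minus strand at chr1:128359706-128359855 for Mcm6, chr10:69352913-69353062 for Cdk1, chr11:99024190-99024339 for Top2a and chr9:70421555-70421704 for Ccnb2. Cdc6 held 1 E2F word, on the opposite strand at −138 from the start, and Mcm6 held 3, of which 2 overlap. Cdk1 held CHR words and CCAAT boxes beside its E2F word. Top2a held both forms of the CHR and several CCAAT boxes. Ccnb2 held 3 CCAAT boxes in the printed stretch, and its TTTGAA words lay at −167 and 5, outside it.

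Over the whole windows, an E2F word stood in 6 of 14 S-phase windows (42.9%) and in 1 of 16 mitotic windows (6.25%), beside 2.26% of all 32851 promoters. A CHR word stood in 2 S-phase windows (14.3%) and in 12 mitotic windows (75%), beside 19.2% of all. The CCAAT box stood in 9 S-phase (64.3%) and 14 mitotic windows (87.5%), beside 37.4% of all, and CHR with CCAAT in 14.3%, 75% and 7.52%. A match describes letters only, and a window without one shows no more than that these words are not in it.

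The values are signal intensities, scaled so that the trimmed mean of each array is 500, and they were compared as log2(signal + 16). Differences below are on that scale, as difference ± standard error, and were tested with limma in 1 model over all 16 arrays. A member is said to have passed, to have risen or to have fallen only where p adjusted over the 12735 genes was under 0.05. Signals are compared within a gene only, since probe sets differ in brightness.

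Esr1, the gene of the deleted receptor, was at 792, 876, 1100 and 1011 in the WT-OVX mice and at 580, 627, 723 and 617 in the ERaKO-OVX mice, without overlap. After estrogen it was at 475, 456, 434 and 664 in wild type and at 753, 513, 484 and 409 in the knockout, with overlap. Other cells of bone and marrow keep the receptor, so whole tissue is a weak check of the deletion, and the sources used here do not say whether the probe set lies in the deleted part. Markers of bone and marrow were present on every array, such as Ctsk of osteoclasts (3295 to 13852), Col1a1 of osteoblasts (26331 to 37644) and Mpo of neutrophil precursors (16637 to 53936). The arrays ERaKO-E2-4hr 1, WT-E2-4hr 2 and WT-OVX 2 stood apart by the mean signal of 9 spike-in probe sets (28518, 32823 and 50791, against 7752 to 14563 on the other arrays) and by the ratio of 3′ to 5′ signal of Actb (2.07, 2.44 and 3.53, all other arrays being lower). Mice numbered 1 and 2 also differed from mice numbered 3 and 4 in all groups, and the summed signal of 12 skeletal muscle genes was 83296 to 664829 in the former and 3891 to 35336 in the latter. The labels do not call these numbers a batch. Nothing in the labels beyond the separate mice says how the replicates were handled, so p-values measure the spread between these mice. In the group comparisons that spread includes the difference between mice 1 and 2 and mice 3 and 4, since the fit has group means only.

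The 33 members varied together from mouse to mouse. Within groups, the deviations of 2 members from their group means over the 16 arrays had a median correlation of 0.51 among S-phase members (105 pairs), 0.54 among mitotic members (153 pairs) and 0.51 between the classes (270 pairs), against 0.00 over the pairs of all genes tested. These points share arrays and RNA, and the correlations are descriptions. Top2a, the topoisomerase that untangles copied DNA, followed the other members most closely, with a median correlation of 0.71, and Cdc6 stood at 0.68. Mcm2 (−0.00), Ccne1 (0.05), Mki67 (0.22) and Rrm2 (0.26) followed them least, each by its brightest probe set. For Mcm2, Ccne1 and Rrm2 that probe set is of a type (_s_at or _x_at) whose probes can be shared or cross-hybridise. Their other probe sets were not correlated here. The array ERaKO-E2-4hr 1, on which all 33 members were below their means, entered every correlation, and none was computed without it. The median standard deviation within groups was 0.29 for S-phase and 0.30 for mitotic members, beside 0.34 for all genes.

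**Figure D1:**
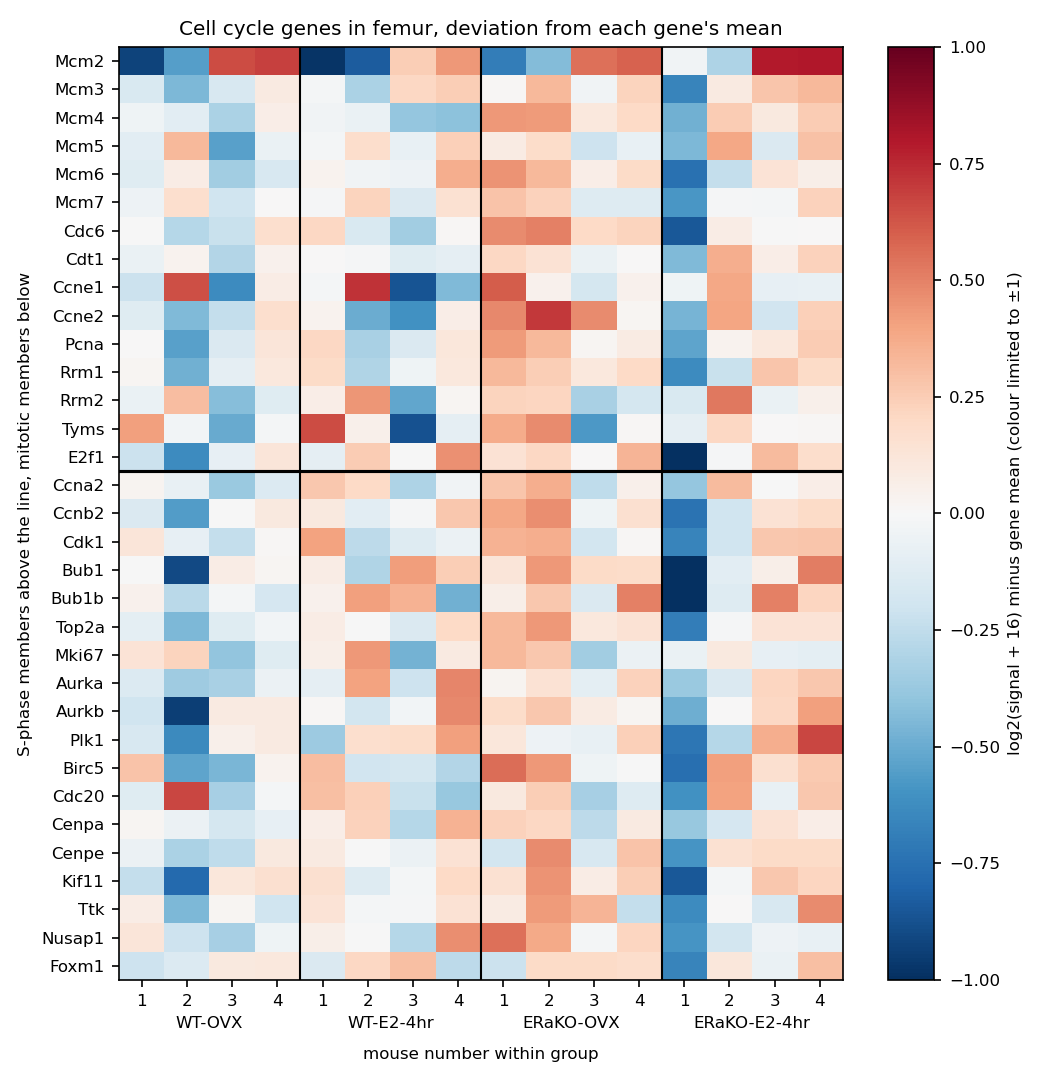
Each row is 1 member and each column 1 mouse, in 4 groups of 4, and the colour is log2(signal + 16) minus the mean of that gene over all arrays, limited to 1 in both directions. The column of mouse 1 of ERaKO-E2-4hr is blue throughout, with all 33 members below their means, and the columns of ERaKO-OVX mice 1 and 2 are mostly red.

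The first comparison asked how the genotypes differed under vehicle. Of the 33 members, 32 were higher in ERaKO-OVX than in WT-OVX, beside 50.2% of all genes tested, and no single member passed. Members varied together, so here and in the comparisons below the 33 are not separate observations. Per array, the median member deviation from the gene means was −0.29 to 0.03 in WT-OVX and −0.04 to 0.32 in ERaKO-OVX, with overlap. The SD of that median within groups was 0.22. All 15 S-phase members were higher, with a median difference of 0.30, and 17 of 18 mitotic members, with a median of 0.28, while the median of all genes was 0.00. By limma, 0 members passed (0% of all genes did), and 6 had an unadjusted p under 0.05 as higher, beside 2.13% of all genes, and 0 as lower, beside 1.42%. The groups did not overlap for 4 members, all higher, beside 2.22% of all genes as higher and 1.88% as lower.

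Ccne2, the cyclin that starts S phase together with its close relative Ccne1, had the largest difference. Its signals were 1430, 1143, 1314 and 1746 in WT-OVX and 2172, 2549, 2160 and 1574 in ERaKO-OVX. Of the 4 knockout mice, 3 lay above every wild-type mouse, and mouse 4 lay among them. The difference was 0.58 ± 0.22, a fold of 1.49, with an unadjusted p of 0.0179 and a limma adjusted p of 0.950.

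Cdc6, the helicase loader, was at 1261, 1034, 1083 and 1425 in WT-OVX and at 1760, 1805, 1455 and 1484 in ERaKO-OVX. The helicase subunit Mcm4 was at 4587, 4405, 3800 and 4961 in WT-OVX and at 6377, 6364, 5082 and 5439 in ERaKO-OVX. For both genes every knockout mouse was above every wild-type mouse, by a narrow margin. The differences were 0.44 ± 0.20 for Cdc6 (unadjusted p = 0.0404) and 0.39 ± 0.17 for Mcm4 (unadjusted p = 0.0371), and both had a limma adjusted p of 0.950. Mcm6, of the same helicase, differed by 0.40 ± 0.18 (unadjusted p = 0.0431). Smaller differences stood at the sliding clamp Pcna (0.35), the ribonucleotide reductase subunit Rrm1 (0.33), Mcm3 (0.30) and E2f1 (0.37). Cdt1, the partner of Cdc6, was at 0.14, and Mcm5, Mcm7, Tyms, Rrm2 and Mcm2 were at 0.04 to 0.11, all within their standard errors. These values come from the brightest probe sets, and others of the same genes gave other values. From WT-OVX to ERaKO-OVX, group means went from 4423 to 6761 and 2671 to 4114 for Rrm2. They went from 1362 to 1774 for Mcm5, 2414 to 3190 for Mcm2 and 1570 to 2254 for Cdt1. Mcm7 was split (2801 to 3623, 2496 to 3170 and 4032 to 3941), and Tyms went from 165 to 137.

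Among the mitotic members Top2a was at 5849, 4579, 5744 and 6156 in WT-OVX and at 7823, 8445, 6751 and 6934 in ERaKO-OVX. Nusap1, which bundles spindle microtubules, was at 3636, 2897, 2662 and 3252 against 4897, 4360, 3294 and 3886. Top2a did not overlap between the groups, and for Nusap1 mouse 3 of ERaKO-OVX lay inside the wild-type range. The differences were 0.43 ± 0.18 for Top2a (unadjusted p = 0.0288) and 0.39 ± 0.18 for Nusap1 (unadjusted p = 0.0442), each with a limma adjusted p of 0.950. Cyclin B2 (Ccnb2) differed by 0.40 ± 0.20 (unadjusted p = 0.0673, adjusted p = 0.950). The checkpoint kinase Bub1, the fourth member without overlap, was at 909, 480, 961 and 925 in WT-OVX and at 991, 1237, 1041 and 1038 in ERaKO-OVX, a difference of 0.43. The spindle motor Kif11 (0.42), the survivin gene Birc5 (0.40), Aurkb (0.38) and Aurka (0.29) were higher by similar amounts. Cdc20, which activates the ligase that ends mitosis, was the exception at −0.08, though another of its probe sets went from 2058, 1337, 1993 and 1785 to 2577, 2904, 2190 and 2509.

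Of all 66 member probe sets of mean signal over 121, 59 were higher in ERaKO-OVX, with a median of 0.30. Of all 26606 probe sets over that signal, 13891 were higher, with a median of 0.02. By limma 574 of all had an unadjusted p under 0.05 as higher and 340 as lower. Among the member probe sets 10 did so as higher and 1 as lower. That 1 belongs to Mcm3, whose probe sets disagreed. Its brightest was at 0.30, while an _x_at probe set went from 2478, 2675, 1504 and 2404 in WT-OVX to 1441, 1460, 1731 and 1800 in ERaKO-OVX (−0.46 ± 0.22, limma adjusted p = 0.974) and another stood at −0.38. Of 23 members with more than 1 such probe set, 6 had both signs. The median member difference was above 0 in all 29 alternatives run, from 0.14 to 0.41. Leaving out 1 mouse at a time gave 0.21 to 0.36. Within mice 1 and 2 it was 0.41 with 32 of 33 members higher, and within mice 3 and 4 it was 0.14 with 28 higher, so the larger share came from the mice numbered 1 and 2, which include the WT-OVX array of high spike-in signal. With WT-OVX 2, WT-E2-4hr 2 and ERaKO-E2-4hr 1 all left out it was 0.21. Of 15 erythroid genes, whose cells are among the fastest dividing in marrow, 12 were also higher in ERaKO-OVX, with a median of 0.38 and 0 passing (1 at an unadjusted p under 0.05). Their summed signal was 85522 to 161933 in WT-OVX and 105307 to 162695 in ERaKO-OVX. Neutrophil precursor genes were higher in 7 of 7 cases (median 0.25) and B lymphocyte precursor genes lower in 11 of 12 (median −0.13). Skeletal muscle genes were lower in 11 of 12 (median −1.46). By limma 0 genes of these lists passed, and 0 of the last 3 lists had an unadjusted p under 0.05. The part of any of these in the member differences was not tested.

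**Figure D2:**
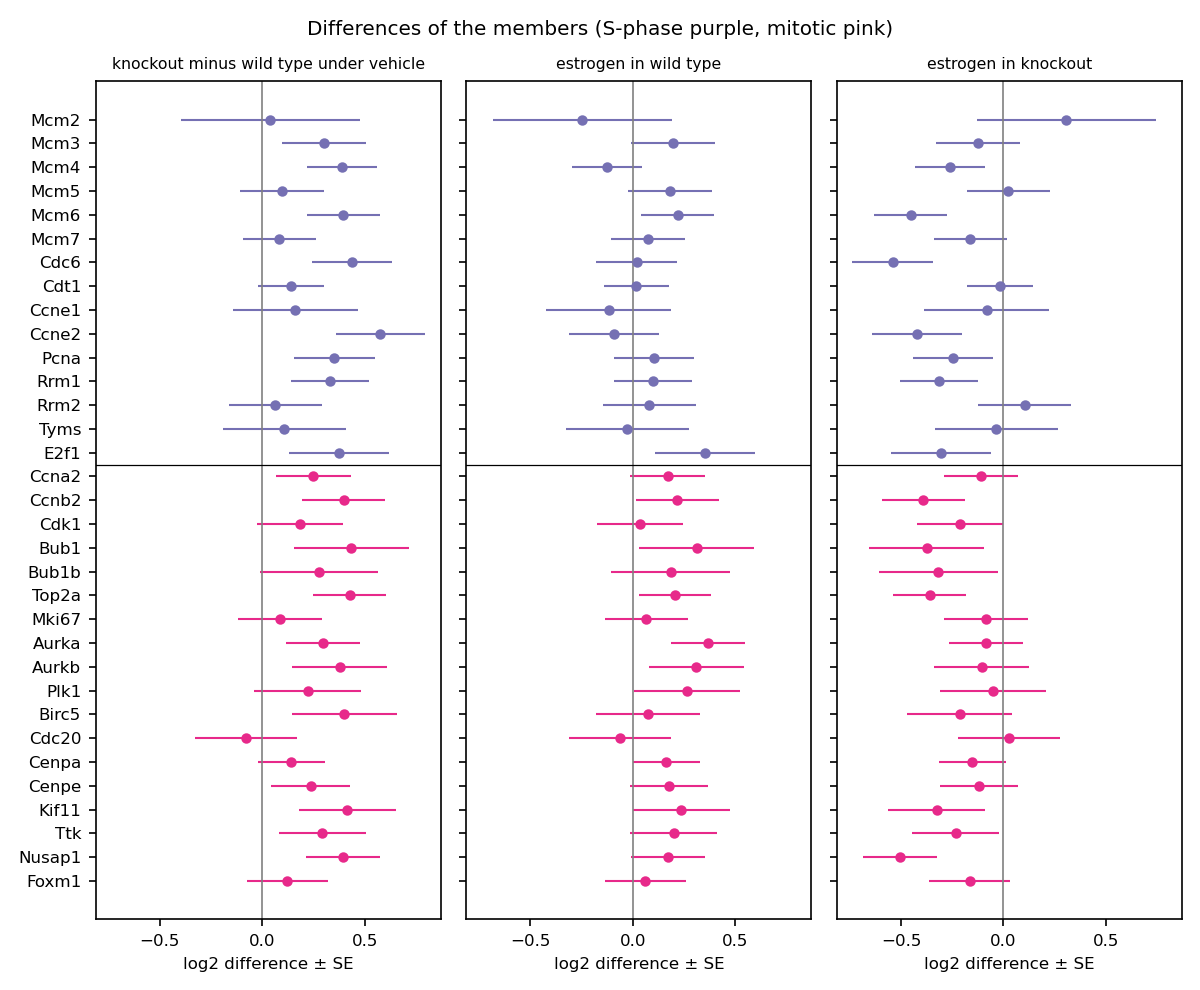
Points are the log2 differences of the 33 members and bars their standard errors from limma, for ERaKO-OVX minus WT-OVX, WT-E2-4hr minus WT-OVX and ERaKO-E2-4hr minus ERaKO-OVX, with S-phase members in purple above the line and mitotic members in pink below it. In the first panel 32 points lie right of 0, in the second 27, and in the last 29 lie left of it, while no point passed the adjusted threshold.

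The second comparison asked what estrogen did within 4 h in wild type. Mitotic members were slightly higher after estrogen in 17 of 18 cases, with a median of 0.18, and S-phase members in 10 of 15, with a median of 0.07, beside 47.8% of all genes higher and a median of −0.01. By limma 0 of 33 members passed (0% of all genes), and 0 had an unadjusted p under 0.05, beside 3.88% of all genes as higher and 4.77% as lower. No member was free of overlap between the groups (2.21% of all genes were as higher and 2.29% as lower).

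Aurka, the kinase of the spindle poles, had the smallest p. It was at 1432, 1230, 1258 and 1512 in WT-OVX and at 1482, 2092, 1360 and 2221 in WT-E2-4hr. Mice 2 and 4 after estrogen were above all others and mice 1 and 3 were within the vehicle range. The difference was 0.37 ± 0.18 (unadjusted p = 0.0582, limma adjusted p = 0.592). E2f1 went from 730, 544, 801 and 924 to 795, 1012, 845 and 1168, a difference of 0.35 ± 0.24 (adjusted p = 0.729), with most mice of both groups between 730 and 1012. Aurkb, of the chromosome passenger complex, differed by 0.31 ± 0.23 (adjusted p = 0.754), Top2a by 0.21 ± 0.18 (adjusted p = 0.799), Mcm6 by 0.22 ± 0.18 (adjusted p = 0.787) and Mcm3 by 0.20 ± 0.20 (adjusted p = 0.839). The signs of Top2a, Mcm6 and Mcm3 turned, to between −0.04 and −0.03, when all probe sets of the gene were averaged. Mcm4 (−0.13), Ccne1 (−0.12), Ccne2 (−0.09), Mcm2 (−0.25), Tyms (−0.03) and Cdc20 (−0.06) were on the other side of 0, by their brightest probe sets. By other probe sets over the signal limit given above, group means went from 3079 to 3430 for Mcm4 and 716 to 835 for Ccne1. They went from 2414 to 2584 for Mcm2, 1793 to 2371 for Cdc20 and 165 to 142 for Tyms. Ccne2 has no other probe set. Over all member probe sets above that limit, 24 of 34 S-phase and 29 of 32 mitotic were higher after estrogen.

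The median over members was 0.17 within mice 1 and 2, with 30 higher, and 0.06 within mice 3 and 4, with 22 higher. It was 0.10 without WT-OVX 2 or without WT-OVX 3, against 0.16 with all mice, so each of these vehicle mice moved it by more than 1.5 times. Without WT-OVX 3 the S-phase median alone was −0.02, the other side of 0. The neutrophil precursor genes were higher after estrogen in the same mice, in 7 of 7 cases with a median of 0.97, 6 of them at an unadjusted p under 0.05 and 0 passing. Their summed signal was 51444 to 66427 in WT-OVX and 83264 to 154299 in WT-E2-4hr, without overlap, and its part in the member differences was not tested. This comparison shares its vehicle mice with that of the genotypes under vehicle.

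The third comparison asked what estrogen did in the knockout. Here 29 of 33 members were lower after estrogen, with a median of −0.16 for S-phase and −0.19 for mitotic members, beside 51.4% of all genes higher. Skeletal muscle genes were higher in 12 of 12 cases (median 1.11) and erythroid genes lower in 12 of 15 (median −0.34), with 0 of either at an unadjusted p under 0.05, and their part in the member values was not tested. For the members, by limma 0 passed (0% of all genes), while 3 had an unadjusted p under 0.05 as lower, beside 3.22% of all genes, and 0 as higher, beside 1.66%. Without overlap, 2 were lower, beside 2.86% of all genes, and 0 higher, beside 1.52%. The direction depended on 1 array.

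Cdc6 was at 1760, 1805, 1455 and 1484 in ERaKO-OVX and at 696, 1337, 1266 and 1273 in ERaKO-E2-4hr. Mcm6 was at 4982, 4563, 3821 and 4158 in ERaKO-OVX and at 2167, 3088, 4008 and 3806 after estrogen. Nusap1 was at 4897, 4360, 3294 and 3886 in ERaKO-OVX and at 2222, 2950, 3234 and 3171 after estrogen. In each gene mouse 1 after estrogen was the lowest of all 16, and for Mcm6 mice 3 and 4 after estrogen were within the vehicle range or near it. The differences were −0.54 ± 0.20 for Cdc6 (unadjusted p = 0.0140), −0.45 ± 0.18 for Mcm6 (unadjusted p = 0.0229) and −0.50 ± 0.18 for Nusap1 (unadjusted p = 0.0131), each with a limma adjusted p of 0.982. Ccne2 stood at −0.42 ± 0.22, Ccnb2 at −0.39 ± 0.20 and Top2a at −0.36 ± 0.18, with the same adjusted p. The 4 members on the other side were Mcm2 (0.31), Rrm2 (0.10), Cdc20 (0.03) and Mcm5 (0.02), each by an _s_at or _x_at probe set. Their other probe sets over the signal limit given above were lower. From ERaKO-OVX to ERaKO-E2-4hr, group means went from 3190 to 2495 for Mcm2 and 2545 to 2241 for Cdc20. They went from 1774 to 1539 for Mcm5, and from 6761 to 5470 and 4114 to 3708 for Rrm2. Dim probe sets under that limit were higher for Cdc20 (72 to 90) and Mcm5 (73 to 101).

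In ERaKO-E2-4hr 1, 24 of 33 members (8 S-phase and 16 mitotic) had their lowest value of all 16 arrays, beside 13.1% of all genes. The median deviation from the gene means was −0.48 for S-phase and −0.64 for mitotic members on that array. The other 3 mice of the group were at 0.06 to 0.23 and at −0.02 to 0.24. That array also had a high spike-in signal and Actb ratio, and the highest skeletal muscle sum of all, 664829. WT-OVX 2, whose spike-in signal was higher still, held the lowest value of 2 members, beside 15.3% of all genes. Its median deviations were also below 0, at −0.10 for S-phase and −0.33 for mitotic members. WT-E2-4hr 2, also of high spike-in signal, was at −0.03 and −0.004. Whether array quality or the muscle in the sample set the member levels of ERaKO-E2-4hr 1 was not tested. Without ERaKO-E2-4hr 1, 16 members were higher and 17 lower after estrogen, and the medians were −0.02 for S-phase and 0.00 for mitotic members. In that fit 0 members had an unadjusted p under 0.05, beside 121 of all 12735 genes as higher and 208 as lower. Cdc6 was then at −0.32 ± 0.16, Mcm6 at −0.27 ± 0.15 and Nusap1 at −0.38 ± 0.18, each with a limma adjusted p of 1.00. The median was −0.54 within mice 1 and 2 and 0.13 within mice 3 and 4, with 1 and 27 of 33 members higher. With array quality weights it was −0.05, with 11 higher.

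**Figure D3:**
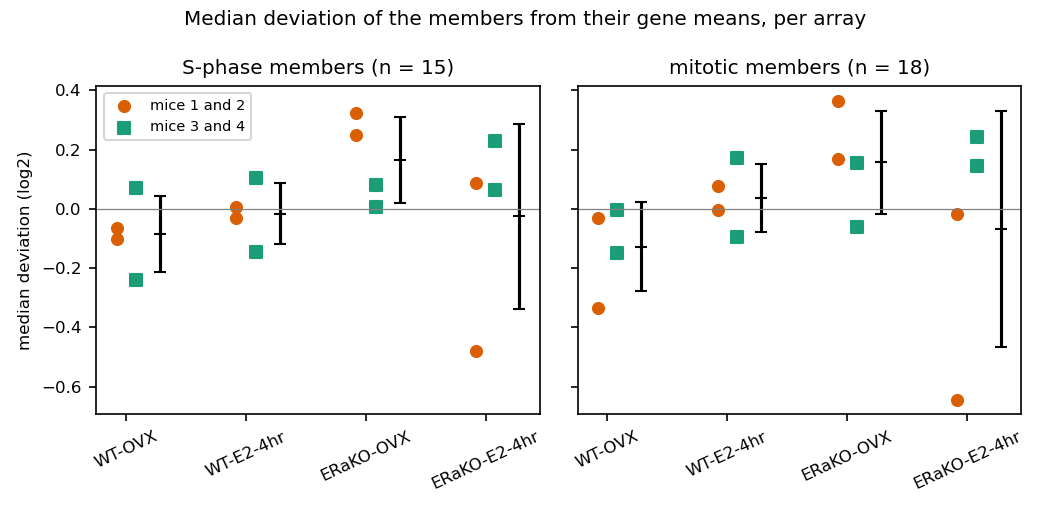
Each point is 1 array, at the median over S-phase members (left) or mitotic members (right) of their deviation from the gene means, with mice 1 and 2 as circles, mice 3 and 4 as squares, and the mean and SD of the 4 arrays in black. The lowest point in both panels is ERaKO-E2-4hr 1, at −0.48 and −0.64, and the ERaKO-OVX arrays lie between 0.01 and 0.32 and between −0.06 and 0.36.

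**Figure D4:**
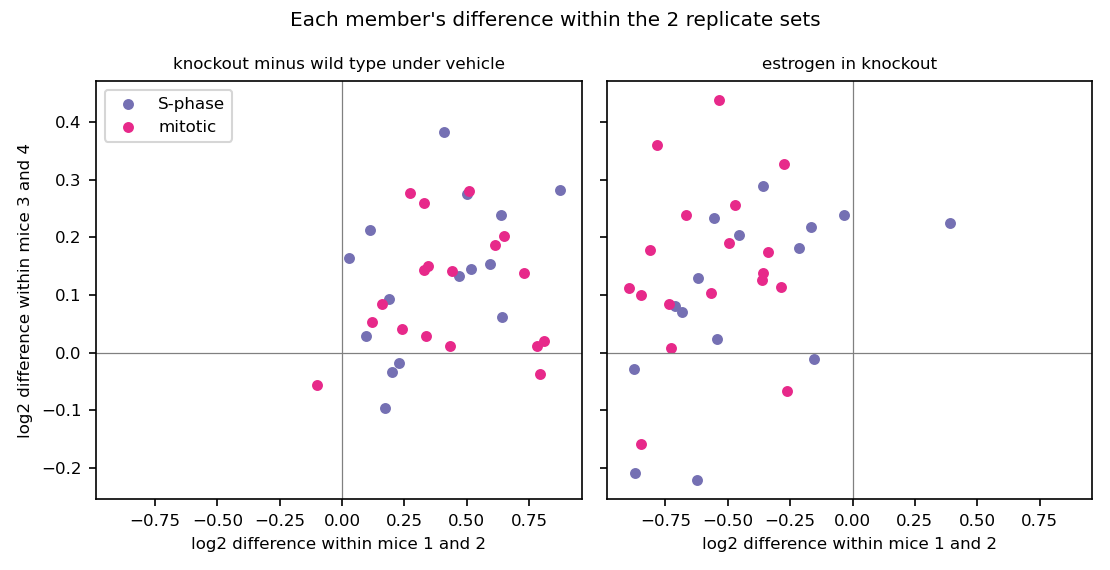
Each point is 1 member, with its log2 difference within mice 1 and 2 on the horizontal axis and within mice 3 and 4 on the vertical axis, for ERaKO-OVX minus WT-OVX (left) and ERaKO-E2-4hr minus ERaKO-OVX (right). On the left most points have both values above 0, and on the right 32 have a horizontal value below 0 and 27 a vertical value above it.

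After estrogen the genotypes differed little in these genes. Of 33 members 10 were higher in ERaKO-E2-4hr than in WT-E2-4hr, 8 S-phase and 2 mitotic, beside 53.3% of all genes, with medians of 0.00 and −0.12. By limma 0 passed (0% of all genes) and 0 had an unadjusted p under 0.05, beside 3.54% of all genes as higher and 3.16% as lower. No count without overlap is used here (1.19% of all genes were so as higher and 1.14% as lower). The smallest p values within each class were those of Nusap1 (−0.28 ± 0.18, adjusted p = 0.838), Mcm6 (−0.28 ± 0.18, 0.838), Mcm4 (0.26 ± 0.17, 0.838), Mcm2 (0.59 ± 0.44, 0.850), Cenpa, the centromere histone (−0.17 ± 0.16, 0.902), and Ccnb2 (−0.21 ± 0.20, 0.904). Without ERaKO-E2-4hr 1, 27 of 33 were higher with a median of 0.10, beside 6709 of all 12735 genes higher. The median was −0.37 within mice 1 and 2 and 0.16 within mice 3 and 4.

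Averaged over treatments, 30 of 33 members were higher in the knockout, beside 52.3% of all genes, with medians of 0.12 for S-phase and 0.07 for mitotic members. By limma 0 passed (0% of all genes), and 2 had an unadjusted p under 0.05, Mcm4 (0.32 ± 0.12, unadjusted p = 0.0169) and Ccne2 (0.41 ± 0.15, unadjusted p = 0.0172), both higher and with an adjusted p of 1.00, beside 1.85% of all genes as higher and 1.16% as lower. Pcna (0.18 ± 0.14), Birc5 (0.26 ± 0.18), Top2a (0.14 ± 0.13) and Aurkb (0.17 ± 0.16) followed. The median of 0.09 became 0.19 without ERaKO-E2-4hr 1, when all 33 were higher, beside 6624 of all 12735 genes. In that fit 7 members had an unadjusted p under 0.05 as higher, beside 353 of all genes as higher and 229 as lower. Averaged over genotypes, estrogen left 12 of 33 members higher, beside 48.6% of all genes, with a median of −0.03. There 0 members passed by limma (0.0157% of all genes did as higher) and 0 had an unadjusted p under 0.05, beside 2.48% of all genes as higher and 3.66% as lower. Cdc6 (−0.26 ± 0.14), Ccne2 (−0.26 ± 0.15), Mcm4 (−0.19 ± 0.12), Nusap1 (−0.17 ± 0.13), Aurka (0.14 ± 0.13) and Aurkb (0.10 ± 0.16) had the smallest p within their class, with adjusted p from 0.860 to 0.997. These averages share all their mice with the comparisons above.

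The test of the difference between the responses set the knockout response against the wild-type response. It was lower in the knockout for 29 of 33 members, beside 51.3% of all genes higher, with medians of −0.24 for S-phase and −0.37 for mitotic members. By limma 0 passed (0% of all genes), and 4 had an unadjusted p under 0.05 as lower, beside 3.74% of all genes, and 0 as higher, beside 3.87%. By limma they were Nusap1 (−0.68 ± 0.26, unadjusted p = 0.0175), Mcm6 (−0.67 ± 0.26, unadjusted p = 0.0180), Top2a (−0.57 ± 0.25, unadjusted p = 0.0385) and Ccnb2 (−0.61 ± 0.29, unadjusted p = 0.0496), with adjusted p from 0.64 to 0.66. E2f1 stood at −0.66 and Cdc6 at −0.56. Within mice 1 and 2 the median was −0.74 and within mice 3 and 4 it was 0.06. Without ERaKO-E2-4hr 1 it was −0.15, with 25 of 33 lower, beside 6142 of all 12735 genes. Then 2 members had an unadjusted p under 0.05 as lower, beside 268 of all genes as lower and 349 as higher. Mcm6 was then at −0.49 ± 0.21 (adjusted p = 0.987) and Nusap1 at −0.55 ± 0.25 (adjusted p = 0.987).

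Between the replicate sets, mice 3 and 4 against mice 1 and 2 with the 4 groups as terms, 5 members passed. Mcm2 (1.19 ± 0.09) and Plk1 (0.48 ± 0.14) rose, that is, were higher in mice 3 and 4, beside 9.18% of all genes. Ccne1 (−0.53 ± 0.17), Rrm2 (−0.39 ± 0.12) and Mki67 (−0.37 ± 0.11) fell, beside 9.38% of all genes. The limma adjusted p was 7.83e-07 for Mcm2, 0.0242 for Plk1, 0.0272 for Mki67, 0.0355 for Ccne1 and 0.0379 for Rrm2, while Bub1 (0.43 ± 0.17, 0.0857) did not pass. Of all 33, 18 were higher, beside 53.7% of all genes, and the medians were −0.02 for S-phase and 0.11 for mitotic members. The count of 5 moved with single mice: it was 8 without ERaKO-E2-4hr 1, 3 without WT-OVX 2, ERaKO-E2-4hr 2 or ERaKO-E2-4hr 3, and 2 without WT-OVX 3, WT-E2-4hr 2, WT-E2-4hr 3, ERaKO-OVX 1 or ERaKO-OVX 3.

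Mcm2 was at 2206, 2871, 6607 and 6754 in WT-OVX and at 2124, 2355, 4990 and 5694 in WT-E2-4hr. In the knockout it was at 2592, 3114, 6153 and 6342 under vehicle and at 4110, 3385, 7273 and 7337 after estrogen. In all 4 groups mice 3 and 4 were above mice 1 and 2 without overlap. The other Mcm2 probe set was at 2550, 2024, 2226 and 2855 in WT-OVX and at 2992, 3982, 2842 and 2946 in ERaKO-OVX, and its set difference was 0.17 (limma adjusted p = 0.441). The split was therefore seen in 1 Mcm2 probe set, of the type named _s_at, which marks probes shared between transcripts, and not in the other. Rrm2 gave different answers by probe set too, at −0.39 for the brightest, of the _x_at type that can cross-hybridise, and at 0.21 and 0.66 for the others. The −0.39 and the 0.66 passed the threshold in opposite directions. Ccne1 was at −0.53 by an _x_at probe set and −0.06 by its other one, and Cenpe, a kinetochore motor, at 0.11 by its brighter probe set and 1.62 by the dimmer one. Mki67, the gene of the Ki-67 antigen, has 1 probe set, and mice 1 and 2 were at 12518 to 17784 and mice 3 and 4 at 9446 to 13950.

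Of 23 members with more than 1 probe set over the signal of 121, 12 had both signs between the replicate sets, and 1 (Rrm2) passed in both directions. Over the 66 member probe sets 8 passed as higher and 4 as lower between the sets. Of all 26606 probe sets over that signal, 3091 passed as higher and 2197 as lower. The 12 skeletal muscle genes all fell between the sets, with a median of −4.26, and 9 of 11 osteoclast genes rose, with a median of 0.84 over the 11. Erythroid genes had a median of −0.37, with 3 of 15 passing as lower. The part of any of these in the member values was not tested.

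**Figure D5:**
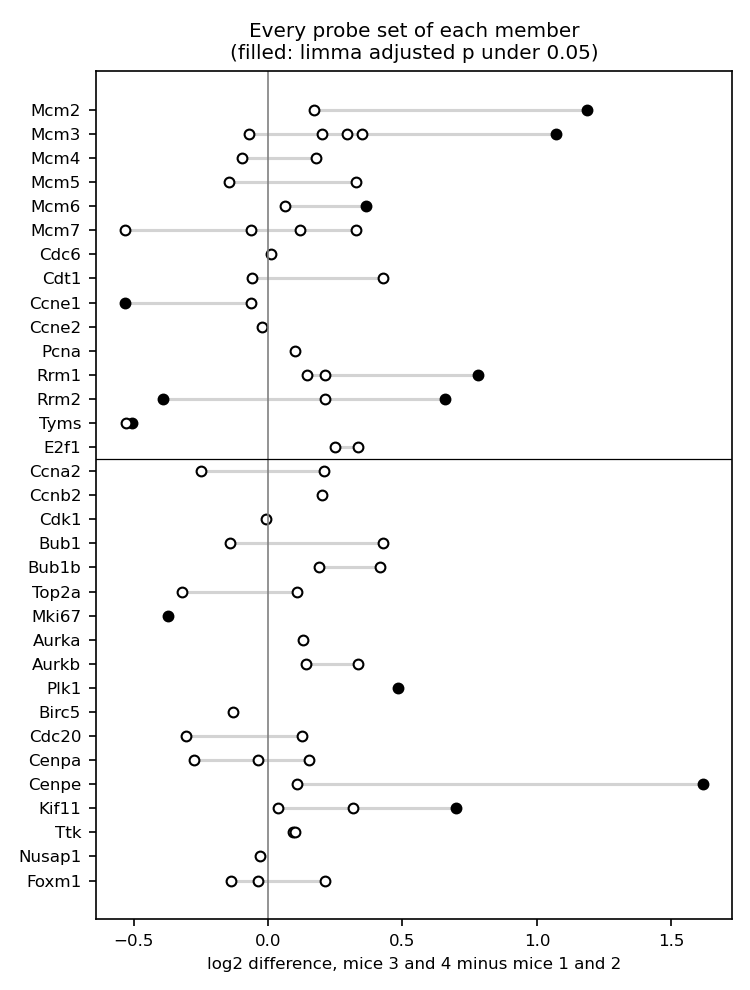
Every probe set over the signal filter is a point at its log2 difference between mice 3 and 4 and mice 1 and 2, 1 row per member, filled where the limma adjusted p was under 0.05. Probe sets of 1 gene, joined by a grey line, spread across 0 for 12 members, and those of Rrm2 include filled points on both sides.

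To compare the S-phase and mitotic classes, the median deviations were set against each other within arrays. On single arrays the mitotic median minus the S-phase median ran from −0.23 to 0.11. It was −0.04 ± 0.14 in WT-OVX, 0.05 ± 0.02 in WT-E2-4hr, −0.01 ± 0.12 in ERaKO-OVX and −0.04 ± 0.11 in ERaKO-E2-4hr (mean ± SD, n = 4). In WT-E2-4hr the mitotic median was the higher on all 4 arrays, by 0.03 to 0.07, and in the other groups the sign varied between arrays. Gaps as large stood on single arrays there, up to 0.09 in WT-OVX, 0.11 in ERaKO-OVX and 0.08 in ERaKO-E2-4hr. Class medians of the group comparisons came from the brightest probe set of each gene. Their widest gap was in the difference between the responses (−0.24 against −0.37). The genotypes after estrogen (0.00 against −0.12) and estrogen in wild type (0.07 against 0.18) followed. Under vehicle the genotype medians were 0.30 and 0.28. Over all member probe sets above the signal filter (34 S-phase and 32 mitotic), the responses differed by −0.36 and −0.33, the opposite order. The order was kept for the genotypes after estrogen (−0.04 and −0.10) and under vehicle (0.33 and 0.28), and for estrogen in wild type (0.10 and 0.17). These medians are descriptions, and the differences between the classes were not tested.

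Genes of the same pathways outside the 34 were counted from lists drawn up by function. Under vehicle 39 of 45 other replication genes were higher in the knockout, with a median of 0.22, and 55 of 57 other mitotic genes, with a median of 0.24. By limma 0 passed, and 2 and 6 had an unadjusted p under 0.05 as higher, beside 2.13% of all genes. Of all genes 50.2% were higher. Tpx2, which activates Aurka at the spindle, was at 1172, 1093, 1059 and 1209 in WT-OVX and at 1610, 1777, 1367 and 1586 in ERaKO-OVX, without overlap, a difference of 0.47 ± 0.16 (adjusted p = 0.950). Ube2c, the ubiquitin-conjugating enzyme of mitotic exit, differed by 0.78 ± 0.30, the primase Prim1 by 0.34 ± 0.14 and the replication kinase subunit Dbf4 by 0.39 ± 0.17.

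In wild type after estrogen 30 of 45 replication genes and 47 of 57 mitotic genes were higher, beside 47.8% of all genes. Their medians were 0.09 and 0.22. By limma 1 and 4 had an unadjusted p under 0.05 as higher, beside 3.88% of all genes, with 0 passing. Tacc3, a spindle protein bound by Aurka, was at 1107, 719, 855 and 863 in WT-OVX and at 1271, 1174, 1383 and 1593 in WT-E2-4hr, without overlap, a difference of 0.61 ± 0.19 (adjusted p = 0.349). The spindle depolymerase Kif2c differed by 0.42 ± 0.16, the phosphatase Cdc25a by 0.72 ± 0.31 and Dbf4 by 0.33 ± 0.17. In the knockout 4 of 45 and 6 of 57 were higher, beside 51.4% of all genes, with medians of −0.19 and −0.20. The lower side was led by Ncapg (−0.56), Cdkn3 (−0.53), Rfc4 (−0.40) and Gins2 (−0.86). Without ERaKO-E2-4hr 1 those knockout medians were −0.03 and −0.06. The difference between the responses was lower in the knockout for all but 5 of 45 and 3 of 57, beside 51.3% of all genes higher. Its medians were −0.29 and −0.44. By limma 0 passed, with 3 and 11 at an unadjusted p under 0.05, beside 3.87% of all genes as higher and 3.74% as lower. Without ERaKO-E2-4hr 1 the mitotic median was −0.25, with 3 at that level, and the replication median −0.11, with 0. Of all 12735 genes 349 were at that level as higher and 268 as lower. Cdkn3, a phosphatase that acts on cyclin-dependent kinases, differed by −0.94 ± 0.27 and the mitotic phosphatase Cdc25c by −1.02 ± 0.36 (limma adjusted p of each 0.637).

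Regulators of the cyclin-dependent kinases, 38 genes tested, were split in some comparisons and leaned one way in others. Under vehicle 26 were higher in the knockout (median 0.17), beside 50.2% of all genes. After estrogen in the knockout 28 were lower (median −0.11, and 25 lower without ERaKO-E2-4hr 1), beside 51.4% of all genes higher. The difference between the responses was lower for 25 (median −0.13), beside 51.3% of all genes higher. By limma 0 passed, and 2, 5 and 5 had an unadjusted p under 0.05. Shares of all genes at that level were 2.13%, 1.66% and 3.87% as higher and 1.42%, 3.22% and 3.74% as lower. In wild type after estrogen 20 were higher, beside 47.8% of all genes. By limma 0 passed, and 1 as higher and 3 as lower had an unadjusted p under 0.05, beside 3.88% and 4.77% of all genes. Cdkn1c, the kinase inhibitor p57, was at 396, 750, 784 and 801 in WT-OVX and at 369, 169, 235 and 130 in WT-E2-4hr, without overlap. The difference was −1.58 ± 0.29 (limma adjusted p = 0.124). In the knockout Cdkn1c was at 379, 368, 539 and 333 under vehicle and 330, 483, 380 and 271 after estrogen, with overlap, so that the responses differed by 1.43 ± 0.42 (adjusted p = 0.637). Cdkn2d, another inhibitor, was higher in wild type after estrogen by 0.81 ± 0.22 (adjusted p = 0.262). In the knockout the antiproliferative gene Btg2 (−0.76 ± 0.21) and Lin54, the MuvB subunit that binds the CHR (−0.53 ± 0.15), were lower after estrogen, each with an adjusted p of 0.970. Lin54 was at 685, 672, 505 and 474 in ERaKO-OVX and at 388, 375, 397 and 419 in ERaKO-E2-4hr, without overlap.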

How the data were processed

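The deposited values, 1 signal intensity for each probe set, came from the authors' run of GCOS (version not given in the sources used here), per the submitters' processing notes, on an array for the whole mouse genome, and their trimmed mean (2% from each end) is 500 on every array. They were used without further normalization. The array holds 45101 probe sets with 64 controls. Platform annotation gives a name to 35890, of which 932 have several symbols and were not used, 2 of them with a member. The brightest probe set by mean stood for its gene, and genes in the lowest 30% by mean were not tested. The number of arrays limits the precision.

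Values were fitted as log2(signal + 16) with limma 3.58.1 in R 4.3.3, with 1 mean per group over 16 arrays (12 residual degrees of freedom), an empirical Bayes variance trend and Benjamini-Hochberg adjustment over 12735 genes, two-sided. Fits were tested on simulated data. Changes of dim genes are understated by the added 16.

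The members and the lists were chosen with earlier results of these data known, so medians and counts over them are descriptions and no p is given for a list. The 3 S-phase and 3 mitotic members of smallest p in each comparison, and the 2 genes of smallest p from each other pathway list, were named. Members or genes named beyond these were chosen after their values were seen. The cell type lists covered 14 cell types, and those not named in the text are in the closing section.

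The groups share mouse numbers. Same-numbered arrays deviated together across groups (correlation of deviations from group means 0.19 to 0.60 over 24 pairs, median 0.32), and arrays of the other number of the same replicate set did so as much (median 0.37). Since every same-number correlation was over 0.1, the numbers were tried as a pairing in an alternative fit, while all reported values come from the fit without it. With the replicate block, 0 members passed in any group comparison, as without it. Alternatives were the pseudocount, quantile normalization, the filter, the mean of probe sets, array quality weights, the replicate block, the replicate set as a term, each replicate set alone, and leaving out arrays.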

Additional observations from a re-analysis of the deposited data

Results flagged for a closer look

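In 7 of 140 groups examined, 4 groups for each of 33 members and 2 further measures, 1 of 4 mice stood apart from the other 3 by more of the group's range than Dixon's critical value allows. Chance gives about 1 in 20. In ERaKO-E2-4hr, mouse 1 was low for Cdc6 (696 against 1266 to 1337) and for Cenpe (817 against 1379 to 1417), and mouse 2 was high for Ccne1 (3190 against 2297 to 2359) and Mki67 (14045 against 12296 to 12518). In WT-OVX, mouse 2 was low for Bub1 (480 against 909 to 961). In WT-E2-4hr, mouse 1 was high for Birc5 (7494 against 4933 to 5354). In ERaKO-OVX, mouse 1 was low for Foxm1 (573 against 756 to 767).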

How the results depend on the processing

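Across 29 alternatives the median member difference kept its sign for the genotypes under vehicle and averaged over treatments and for estrogen in wild type, and 0 members passed in any group comparison. The replicate block and the replicate set as a term changed no call. Within mice 1 and 2 alone, the medians for all, S-phase and mitotic members were −0.54, −0.54 and −0.55 for estrogen in the knockout. They were −0.74, −0.59 and −0.84 for the responses set against each other, and −0.37 (all) and −0.40 (mitotic) for the genotypes after estrogen. Within mice 3 and 4 they were 0.13, 0.13 and 0.13, then 0.058, 0.13 and 0.041, and 0.16 (all) and 0.20 (S-phase). With WT-OVX 2, WT-E2-4hr 2 and ERaKO-E2-4hr 1 all left out the mitotic median of the difference between the responses was −0.12. The number of members that passed between the replicate sets was 3 without a filter on low genes, where more genes were tested, and 2 to 8 with 1 mouse left out.

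In an alternative chosen after seeing the data, probe sets with the suffix _x_at or _s_at were left out where a gene had another. The number passing between the replicate sets was then 2, the S-phase median there 0.18, and the S-phase median of the difference between the responses −0.46. Mcm2 turned to −0.094 for the genotypes after estrogen and Rrm2 to 0.21 between the sets.

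Averaging all probe sets turned Mcm6 (−0.0353), Mcm3 (−0.0346) and Top2a (−0.040) for estrogen in wild type, Top2a for estrogen in the knockout (0.043) and for the difference between the responses (0.083), Cenpa for the genotypes after estrogen (0.048) and Rrm2 between the sets (0.16). Within mice 3 and 4, Top2a (0.0084) and Ccnb2 (0.11) turned for estrogen in the knockout, Nusap1 for estrogen averaged (0.058), Cenpa (0.074) and Ccnb2 (0.041) for the genotypes after estrogen, and Ccnb2 for the difference between the responses (0.029). Within mice 1 and 2, Mcm4 turned for the genotypes after estrogen (−0.065). With 1 mouse left out, Aurkb for estrogen averaged ran from −0.0153 (without WT-OVX 2) to 0.19. The causes were not tested. Mean signals near the filter of 121 limit what is said of dim probe sets.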

Other observations

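Cell types of marrow and bone, dividing precursors among them, moved as follows, as values without a test of the lists. B lymphocyte precursor genes were lower after estrogen in 12 of 12 cases in wild type (median −0.92) and in 11 of 12 in the knockout (median −0.69), with 4 and 3 at an unadjusted p under 0.05 and 0 passing by limma. The pre-B receptor gene Vpreb1 was at 4071, 3249, 4113 and 3346 in WT-OVX and at 6306, 2853, 33.1 and 853 in WT-E2-4hr, so mice 3 and 4 were low after estrogen and mouse 1 was not. Neutrophil precursor genes, higher after estrogen in wild type, had a median of 0.12 in the knockout, and the responses differed by a median of −0.98 with 0 of 7 higher, 4 at an unadjusted p under 0.05 and 0 passing. The knockout mice were not alike. Their summed signal was 54553, 66721, 56478 and 69179 in ERaKO-OVX and 38241, 62396, 78974 and 103509 in ERaKO-E2-4hr. After estrogen, mice 3 and 4 were thus above all vehicle mice, mouse 2 was among them and mouse 1 was below them. Under vehicle 7 of 8 T and NK cell genes were higher in the knockout (median 0.37), while medians for megakaryocyte, osteoclast, osteoblast, cartilage and endothelium genes were 0.02, −0.12, −0.04, 0.09 and −0.07. Late neutrophil, monocyte and macrophage, mature B lymphocyte and adipocyte genes had medians of −0.14, −0.11, −0.12 and −1.02 there.

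Between the replicate sets other pathway genes passed in both directions. The securin gene Pttg1 fell by 0.81 ± 0.14 (limma adjusted p = 0.000984) and the chromosome motor Kif22 by 0.78, while E2f3 rose by 0.42 and Cdk7, the kinase that activates the cyclin-dependent kinases, by 0.68. The flap endonuclease Fen1 (−0.72) and cyclin G1, Ccng1 (−1.38), fell. Ccng1 was at 16636 in ERaKO-E2-4hr 1 and at 1711 to 9430 on the other arrays. Of 45 replication, 57 mitotic and 38 kinase control genes, 4, 7 and 10 passed between the sets, beside 9.18% of all genes as higher and 9.38% as lower. The replication and mitotic counts are below those shares together, and the lists were not compared by a test.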
